A study of Mus musculus with 30 samples.

Results

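The genes described here are the p200 family genes Ifi202b, Ifi203, Ifi204, Ifi205, Ifi207, Ifi211 and Mndal together with Aim2, 8 genes of 54146 in the count table. They were chosen by symbol, with the chromosome 1 cluster as the locus, and with their levels and IFNG response in each clone, and the lower level of Ifi204 in untreated knockout cells, already known. Of 9 symbols listed, 8 were found. Mnda, the ninth, is not a symbol of the table, and RefSeq gives it as a synonym of Ifi211. Because those measured values chose the members, their IFNG response, its differences between clones and genotypes, and their KO-WT difference in untreated cells are described without a test, and so is the KO-WT difference of Ifi204 after IFNG. For the other comparisons, the clones are those whose levels were known at the choice, so adjusted p-values describe these libraries and are not independent support.

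RNA-seq was performed on J774A.1 cells, a mouse macrophage-like line derived from a BALB/c animal. WT1, WT2 and WT3 are wild-type clones grown from single cells, and KO1 and KO2 are clones with a homozygous CRISPR deletion of B2_Mm2.Dicer1, a SINE B2 element in the first intron of Dicer1. Every clone was measured untreated (UT) and after 4 h with 100 ng/mL recombinant mouse IFNG, in 3 libraries per clone and treatment and 30 libraries in all, so that untreated cells comprised 9 WT and 6 KO libraries, and so did treated cells. The study's methods describe electroporation of guides and Cas9 for the KO clones and single-cell expansion for the WT clones, so the deletion, the electroporation and the founding cell of a clone cannot be told apart. The 3 libraries of a clone are replicate treatments of that clone, and p-values over libraries measure their spread and not that of independent deletions.

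Proteins of the p200 family carry HIN domains, which bind DNA, and most also carry a pyrin domain, through which they contact other pyrin proteins. AIM2 binds double-stranded DNA in the cytosol and assembles an inflammasome with the adaptor ASC, the product of Pycard, and caspase-1. Interferons induce many genes of the family in mouse macrophages. Promoters of interferon-induced genes often hold gamma-IFN activation sites (GAS) or interferon-stimulated response elements (ISRE), the latter bound by IRF proteins among others.

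All 8 genes lie on chromosome 1 within 680.9 kb (mm10). Aim2 is on the plus strand at chr1:173350879-173466040. The others are on the minus strand, in the order Ifi207 (chr1:173723427-173741747), Ifi204 (chr1:173747293-173766943), Mndal (chr1:173849126-173942491), Ifi211 (chr1:173896345-173913046), Ifi203 (chr1:173920407-173942672), Ifi202b (chr1:173962568-173982744) and Ifi205 (chr1:174011998-174031810). Of the exon bases of Mndal, 155 also lie in exons of the pseudogene Gm38050 or of Ifi203 on the same strand, 37 of them in Ifi203, and a fragment there was counted for both genes. Of the 150-base stretches in the transcripts of Ifi211, 46.4% also occur in a transcript of Ifi204, Ifi205 or Mndal, against 12.6% for Ifi205, 6.77% for Ifi204, 1.61% for Mndal, 0.827% for Ifi203 and none for Ifi202b, Ifi207 and Aim2. Only fragments with a unique alignment had been counted, so the level of Ifi211 in particular rests on part of its transcript.

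The sequence before the transcription start is shown for letters known from interferon-induced promoters. RefSeq starts (GRCm38.p6) were held for 7 of the 8 members, all but Ifi204. The 250 bases before each start were searched on both strands for the GAS letters TTCNNNGAA and the ISRE letters, GAAANN followed by GAAA. An ISRE match was found for 5 of the 7 genes (Ifi203, Ifi205, Ifi207, Ifi211 and Mndal), against 2.98% of 32851 promoters of the same length. That percentage is per window, while the members are counted per gene with a match at any start. Ifi203 and Mndal each had a second start, and the window of the first start of Ifi203 held no match. The matches of Mndal lay in annotated exons. A GAS match was found for Ifi202b, against 7.02% of promoters. Neither was found in the window of Aim2. Of the 5 other PYHIN genes of the cluster, 4 held an ISRE match (Ifi206, Ifi208, Ifi213 and Ifi214) and none a GAS match. Ifi213, with an ISRE match, had a log2FC after IFNG in WT of 0.36, and Ifi209 and Ifi202b, with no ISRE match, had 2.65 and 2.83. No response was tested against these matches. Printed for 4 of the members are 30 bases around the ISRE match on the gene's own strand, 5′ to 3′, with the match in capitals. They are chr1:173741831-173741860 for Ifi207, chr1:173913064-173913093 for Ifi211, chr1:173942508-173942537 for the second start of Ifi203 and chr1:174031870-174031899 for Ifi205, all on the minus strand.
Ifi207: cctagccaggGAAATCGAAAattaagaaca
Ifi211: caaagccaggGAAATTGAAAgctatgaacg
Ifi203: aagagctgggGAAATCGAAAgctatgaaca
Ifi205: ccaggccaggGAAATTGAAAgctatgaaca

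The edge of the match nearest the start lay 32 bases before the start in Ifi207, 28 in Ifi211, 26 in Ifi203, 27 in Mndal and 125 in Ifi205. The windows of Ifi202b (chr1:173982845-173983094, minus strand), with the GAS match in capitals, and Aim2 (chr1:173420354-173420570, plus strand, the 217 bases outside annotated exons), with no match, are printed in the same direction.
Ifi202b: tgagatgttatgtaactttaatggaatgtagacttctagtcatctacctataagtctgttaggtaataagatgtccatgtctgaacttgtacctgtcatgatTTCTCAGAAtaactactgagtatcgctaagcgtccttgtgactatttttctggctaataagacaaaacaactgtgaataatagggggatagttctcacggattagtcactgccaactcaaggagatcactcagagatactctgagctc
Aim2: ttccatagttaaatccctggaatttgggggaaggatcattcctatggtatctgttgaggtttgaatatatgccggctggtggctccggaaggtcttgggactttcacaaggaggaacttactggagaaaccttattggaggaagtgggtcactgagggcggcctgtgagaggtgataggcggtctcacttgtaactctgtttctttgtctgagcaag

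These matches are letters in a reference of C57BL/6J sequence and were not measured as binding sites.

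Total counts ran from 15566122 to 37992642 per library, with a median of 23682133.5. Levels are given as counts scaled to library size (CPM) on TMM-scaled library sizes, and changes as log2FC ± SE from edgeR's quasi-likelihood fit. Gbp2b, a guanylate-binding protein gene that responds to IFNG, rose from 3.13 ± 0.435 to 1345 ± 232 CPM in WT (SD, n = 9). Dicer1 was at 152 ± 13.2 CPM in treated WT (SD, n = 9) and 87.2 ± 14.1 CPM in treated KO libraries (SD, n = 6), with a log2FC of -0.80 ± 0.09 (edgeR FDR adjusted p-value = 1.35e-05). The deleted element is intronic, so these exonic counts do not measure the deletion itself. The 8 macrophage markers examined, among them Csf1r, Adgre1 and Lyz2, were above 1 CPM in every library. Their summed level was 4251 to 5616 CPM in untreated WT and 6130 to 6900 CPM in untreated KO libraries, and 4465 to 5777 against 6360 to 6828 CPM after IFNG. This sum was thus higher in KO libraries while their p200 levels were lower. Lyz2, the most abundant marker, reached 2801 CPM in a library, so the sum gives no direction for the other markers. The part of this in the results below was not tested. Markers of T cells and of epithelial cells each summed to at most 0.18 CPM in any library, with Cd3g and Krt8 at 0 in every library. Those of neutrophils summed to at most 3.48 CPM with S100a9 at 0 throughout, and those of fibroblasts to at most 2.92 CPM. In bulk RNA, fewer expressing cells and less RNA per cell cannot be told apart.

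The members differed widely in level. Compared per kb of exon, Ifi202b (45.01 ± 6.57 CPM per kb, SD, n = 9), which lacks a pyrin domain and is known to oppose AIM2, and Ifi207 (44.8 ± 9.66 CPM per kb) were highest in untreated WT cells, and their libraries overlapped. Aim2 followed at 29.4 ± 2.33 CPM per kb, overlapping Ifi207. Mndal, Ifi211, Ifi203 and Ifi204 formed a lower group between 8.68 and 11.7 CPM per kb, in which each gene overlapped its neighbor in the order. Ifi205 was nearly silent at 0.173 ± 0.0424 CPM per kb, with 8 to 27 counts per untreated WT library.

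After IFNG the order changed. Ifi202b reached 318 ± 25.6 CPM per kb in WT (SD, n = 9) and Ifi207 184 ± 36.4 CPM per kb, and neither overlapped the gene below it. Ifi203, Ifi204, Mndal and Ifi211 lay between 69.2 and 96.6 CPM per kb, again with overlap between neighbors. Aim2, which only Ifi202b and Ifi207 exceeded before treatment, stood seventh at 26.3 ± 1.31 CPM per kb, below every library of Ifi211. Ifi205 remained lowest at 2.19 ± 0.286 CPM per kb. In KO cells, too, Aim2 stood seventh and Ifi205 last, with Ifi202b at 262 ± 31.7 CPM per kb, Aim2 at 21.2 ± 1.49 and Ifi205 at 1.54 ± 0.154 (SD, n = 6).

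**Figure D1:**
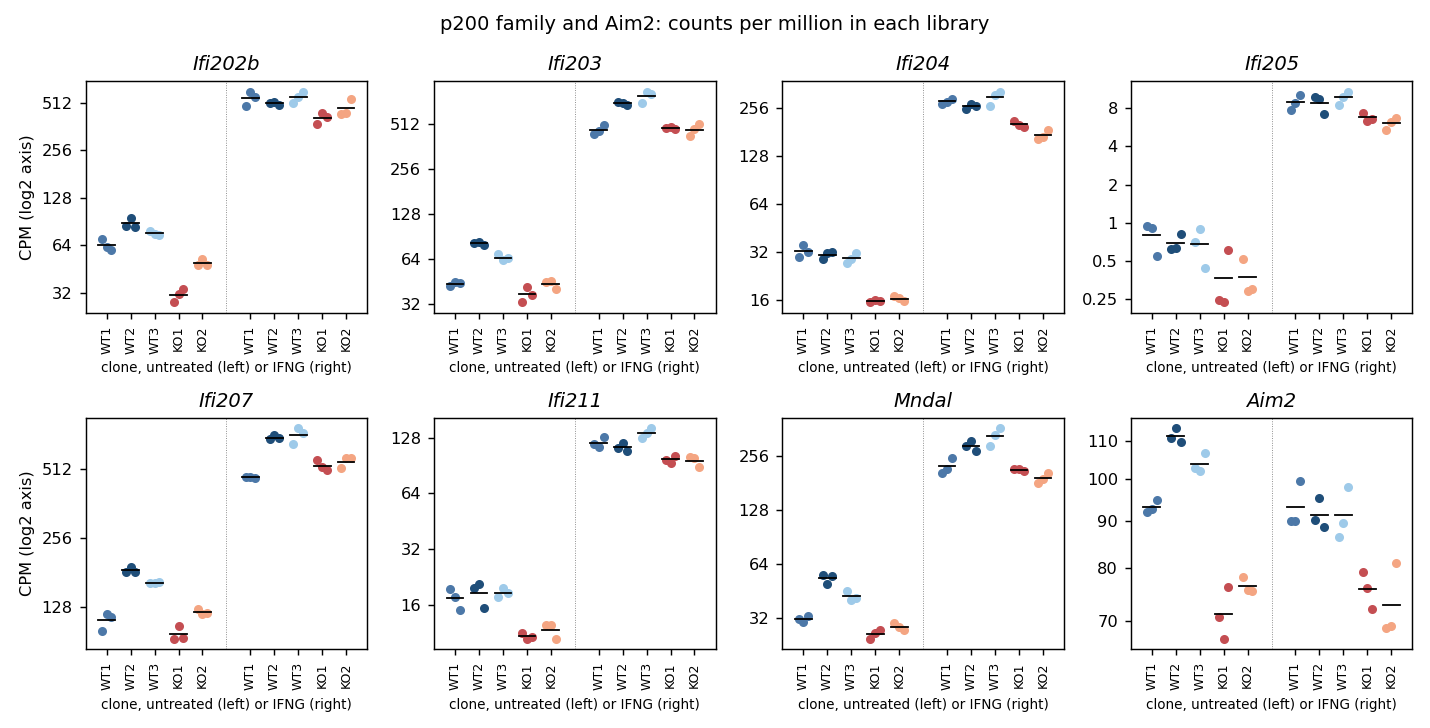
CPM of each gene (log2 axis) in each library, by clone, untreated on the left and after IFNG on the right; points are the 3 libraries of a clone and the black line is their mean. The p200 genes sit higher after IFNG in every clone, and Aim2 stays between 66.9 and 114 CPM.

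The first comparison concerns the IFNG response. In both WT and KO cells, 7 of the 8 genes were higher in every treated library than in every untreated library, and Aim2 was not. This separation held for 6.8% of the genes tested in WT and 10.2% in KO. The median log2FC of the 8 members was 2.80 in WT and 3.29 in KO, where the median of all genes tested was -0.003 and -0.004.

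Ifi204, often set beside human IFI16, was at 27.4 CPM in the lowest, 31.5 in the median and 35.6 in the highest of the 9 untreated WT libraries, and at 255, 273 and 326 CPM after IFNG. In KO1 the untreated libraries were at 15.6, 16.2 and 15.9 CPM and the treated ones at 213, 200 and 197 CPM. In KO2 the untreated libraries were at 17.03, 16.5 and 15.8 CPM and the treated ones at 165, 170 and 186 CPM. Treated libraries were thus several times above untreated libraries in each clone, with log2FC of 3.11 ± 0.07 in WT1, 3.11 ± 0.05 in WT2, 3.37 ± 0.07 in WT3, 3.71 ± 0.05 in KO1 and 3.40 ± 0.06 in KO2.

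Ifi202b was at 60.1, 76.1 and 95.8 CPM in the lowest, median and highest untreated WT library and at 488, 523 and 606 CPM after IFNG. KO1 went from 27.9, 31.2 and 33.6 CPM to 378, 443 and 419 CPM. KO2 went from 47.8, 52.5 and 48.1 CPM to 439, 443 and 541 CPM. The groups did not overlap by treatment, and the fold rise of the mean was 5.80 to 8.49 in the WT clones, 13.4 in KO1 and 9.59 in KO2.

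The remaining p200 genes rose in the same direction with different sizes. Ifi205 had the largest log2FC of the members, 3.64 ± 0.13 in WT and 4.11 ± 0.18 in KO, from a baseline of few counts. Ifi203 had 3.36 ± 0.18 in WT and 3.56 ± 0.08 in KO, Ifi211 2.77 ± 0.07 and 3.12 ± 0.06, and Mndal 2.74 ± 0.14 and 2.91 ± 0.06. Ifi207 had the smallest response among the p200 genes, 2.05 ± 0.14 in WT and 2.31 ± 0.08 in KO, although it was among the 2 highest untreated.

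Aim2 was at 92.1, 103 and 114 CPM in the lowest, median and highest untreated WT library and at 86.5, 90.04 and 99.6 CPM after IFNG. KO1 had 70.7, 66.9 and 76.3 CPM untreated and 79.2, 76.1 and 72.1 CPM treated, and KO2 78.1, 75.7 and 75.4 CPM untreated and 68.7, 69.1 and 81.0 CPM treated. Treated and untreated libraries overlapped in WT1, KO1 and KO2, while in WT2 and WT3 all treated libraries were lower. The log2FC was -0.01 ± 0.06 in WT1, -0.27 ± 0.04 in WT2, -0.18 ± 0.05 in WT3, 0.12 ± 0.06 in KO1 and -0.07 ± 0.06 in KO2. Aim2 was the 1 member of the 8 whose treated libraries were not all higher.

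**Figure D2:**
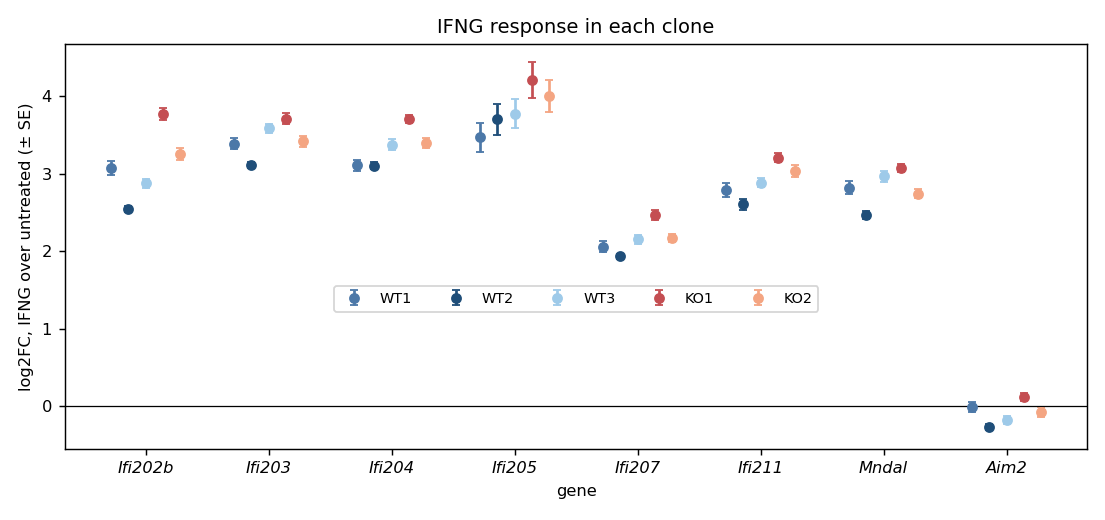
log2FC of treated over untreated libraries for each gene and clone (points, 3 against 3 libraries) with the SE of the edgeR fit. The p200 genes lie between 1.93 and 4.21 in every clone, and Aim2 lies between -0.27 and 0.12.

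**Figure D3:**
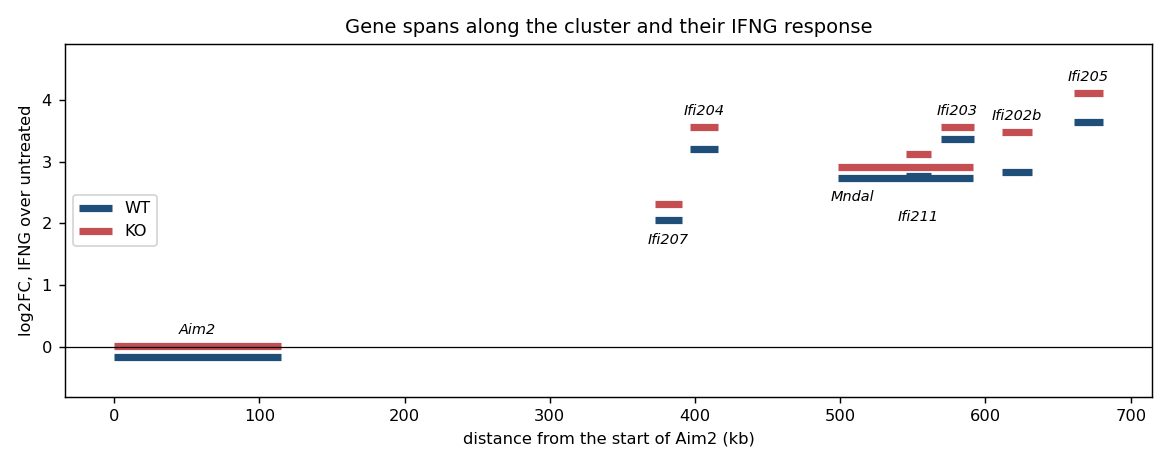
Span of each gene as a bar along the cluster (x axis, kb from the start of Aim2) at the height of its log2FC after IFNG in pooled WT and KO libraries. Aim2 lies apart at the left end near 0, and the p200 genes lie between 2.05 and 4.11.

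Before treatment, all 8 members had lower estimates in KO than in WT cells, from -0.48 for Aim2 to -0.97 for Ifi205, with a median of -0.67. For Ifi202b, Ifi204, Ifi211, Mndal and Aim2, 5 of the 8, every KO library was below every WT library, and 5.1% of all genes tested were so separated. These values belong to the contrast with which the genes were chosen and are a description. Ifi204 had a log2FC of -0.94 ± 0.06, with -0.97 ± 0.08 in KO1 and -0.91 ± 0.08 in KO2 against the same WT libraries. Ifi202b had -1.31 ± 0.13 in KO1 and -0.62 ± 0.12 in KO2. Ifi211 was at 14.96, 18.4 and 20.7 CPM in the lowest, median and highest WT library, at 11.3, 10.5 and 10.7 CPM in KO1 and at 12.4, 12.4 and 10.4 CPM in KO2. Aim2 had a log2FC of -0.48 ± 0.05. In Ifi203 and Ifi207 the KO libraries overlapped those of WT1 and were below those of WT2 and WT3.

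KO and WT cells were also compared after IFNG. All 8 estimates were again below 0. Of the 7 members other than Ifi204, 6 were significantly lower in KO, where 13% of the 13637 genes tested were lower and 10.9% were higher. The median log2FC of the members was -0.40, and that of all genes tested was 0.001. Ifi204 had the largest difference, with a log2FC of -0.58 ± 0.07. Its KO libraries, at 165 to 213 CPM, were all below the WT libraries, at 255 to 326 CPM. Aim2 was lower with a log2FC of -0.30 ± 0.05 (edgeR FDR adjusted p-value = 0.000223), its KO libraries reaching 81.0 CPM and its WT libraries starting at 86.5 CPM. Ifi211 was lower with -0.34 ± 0.06 (edgeR FDR adjusted p-value = 0.000723), at 89.0 to 102 CPM in KO and 109 to 144 CPM in WT. Such complete separation, found for 3 of the 8 members, held for 4.76% of genes.

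For Ifi205, Mndal, Ifi203 and Ifi202b the groups overlapped. Ifi205 had a log2FC of -0.50 ± 0.09 (edgeR FDR adjusted p-value = 0.00107), Mndal -0.47 ± 0.11 (0.00572), Ifi202b -0.28 ± 0.07 (0.00888) and Ifi203 -0.45 ± 0.14 (0.0228). The call of Ifi203 was lost without KO1, KO2, WT2 or WT3 (adjusted p-values from 0.0972 to 0.147), that of Ifi202b without KO1 (0.192) and that of Mndal without KO2 (0.0887). Ifi207 did not pass, with -0.22 ± 0.12 (edgeR FDR adjusted p-value = 0.184). Its treated KO libraries, at 506 to 569 CPM, lay between those of WT1, at 468 to 472 CPM, and those of WT2 and WT3, at 654 to 769 CPM. Without WT1 its log2FC was -0.40 and it passed (edgeR FDR adjusted p-value = 3.77e-06).

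Each KO clone was also set against the same 9 WT libraries, so the results share their controls. In KO1, 4 of the 7 members other than Ifi204 were lower (12.1% of all genes tested), namely Ifi202b, Ifi205, Ifi211 and Aim2. In KO2, 4 of the 7 were lower (6.12% of genes), with Mndal in place of Ifi202b. Leaving out any of 8 libraries ended the call of Mndal in KO2 (edgeR adjusted p-values from 0.0521 to 0.175). The call of Ifi205 was lost with any of 2 libraries left out in KO1 (0.103 to 0.115) and any of 2 in KO2 (0.0540 to 0.0848). That of Ifi211 was lost with any of 2 in KO1 (0.0585 to 0.0759) and any of 3 in KO2 (0.0607 to 0.114). In KO1, Mndal gained a call with any of 2 libraries left out (0.0296 to 0.0433). Ifi204 had a log2FC of -0.47 ± 0.07 in KO1 and -0.71 ± 0.08 in KO2. Aim2 had -0.27 ± 0.05 in KO1 (edgeR FDR adjusted p-value = 0.00319) and -0.34 ± 0.06 in KO2 (0.00432).

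The libraries of a clone are not independent deletions. When counts were summed per clone, 3 WT clones against 2 KO clones, all 8 estimates stayed below 0. Ifi204 left aside, none of the members passed with edgeR (adjusted p-values from 0.276 to 0.732). In that fit 1 of the 16197 genes tested passed.

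**Figure D4:**
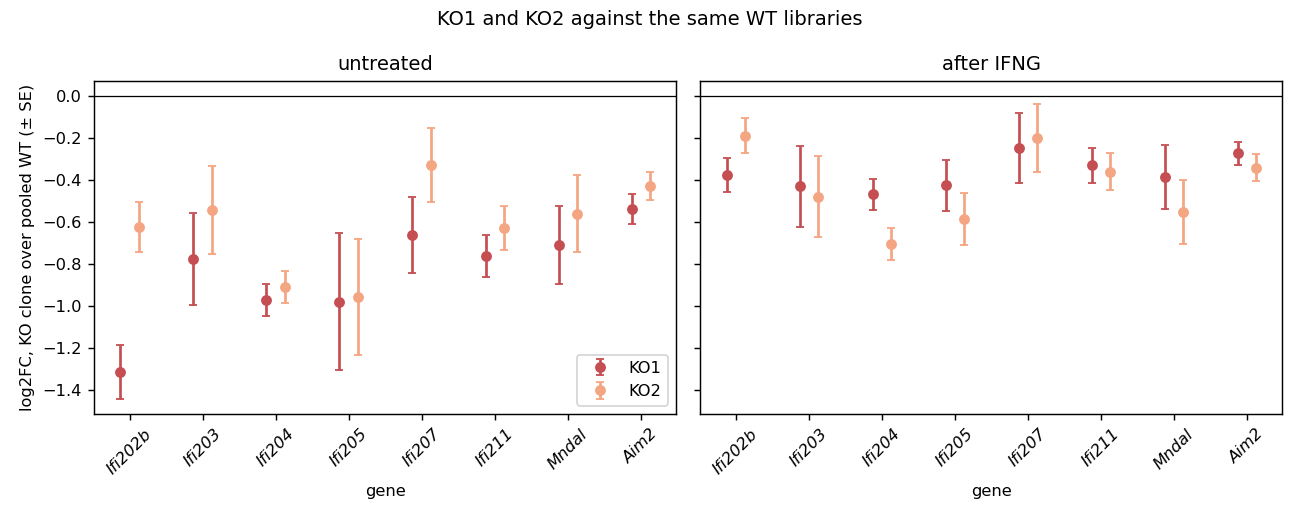
log2FC of KO1 and of KO2 over the pooled WT libraries (points, 3 against 9 libraries) with the SE of the edgeR fit, untreated on the left and after IFNG on the right. All 16 points of each clone lie below 0, and those of Ifi204 lie at -0.97 and -0.91 untreated and at -0.47 and -0.71 after IFNG.

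The difference in response between genotypes was estimated in a single model of the 30 libraries, which held each clone's baseline, a common effect of IFNG and an extra effect of IFNG in KO. All 8 estimates were above 0, a larger response in KO. Ifi202b had the largest difference, a log2FC of 0.66 ± 0.11. Ifi204 and Ifi211 had 0.35 ± 0.08 each and Ifi207 0.26 ± 0.06. Aim2, Ifi203, Ifi205 and Mndal had 0.16 ± 0.06, 0.19 ± 0.09, 0.46 ± 0.25 and 0.14 ± 0.10. Ifi202b, Ifi207 and Ifi211, 3 of the 7 members other than Ifi204, were past the threshold of 0.05 on the adjusted p-value, as were 0.681% of genes in this direction, and nothing is read from this count. The untreated libraries that show the lower KO baseline enter this term. Without KO1 the estimate was 0.42 for Ifi202b, 0.28 for Ifi211 and 0.12 for Ifi207. With counts summed per clone and treatment it was 0.64, 0.36 and 0.26.

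The KO clones were also compared with each other. Of 7 members tested, 3 were lower in untreated KO1 than in KO2, where 12.1% of genes were. They were Ifi202b, with a log2FC of -0.69 ± 0.07 (edgeR FDR adjusted p-value = 3.32e-06), Ifi207, with -0.33 ± 0.05 (0.000169), and Ifi203, with -0.23 ± 0.08 (0.0398), which lost its call when any of 4 libraries was left out (0.0797 to 0.157). Ifi205 had too few counts to enter this test. Ifi204 had -0.06 ± 0.06 and the clones overlapped. After IFNG, Ifi204 was the only member of the 8 to pass and was higher in KO1, by 0.23 ± 0.06 (edgeR FDR adjusted p-value = 0.0130), where 6.53% of genes were higher. Leaving out any of 3 libraries in turn brought its adjusted p-value to between 0.0537 and 0.0732.

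The WT clones also differed, which bears on every pooled WT value. Untreated, 5 of the 8 members differed among WT1, WT2 and WT3 (59.5% of genes), and after IFNG 4 of the 8 did (52.1% of genes), shares near those of all genes. Ifi203 had the widest range of clone levels, 0.89 on the log2 scale untreated (edgeR FDR adjusted p-value = 1.54e-10) and 0.76 after IFNG (8.34e-08). Its untreated mean was 43.8 ± 1.58 CPM in WT1, 81.6 ± 2.18 in WT2 and 65.5 ± 3.14 in WT3 (SD, n = 3), against 37.3 ± 4.50 in KO1 and 43.5 ± 2.64 in KO2. Mndal and Ifi207 had the same order, with WT1 lowest and WT2 highest before treatment, and ranges of 0.74 and 0.72 on the log2 scale. Ifi204 ranged by 0.17 untreated and 0.18 after IFNG and did not pass in either (edgeR FDR adjusted p-values = 0.100 and 0.0667).

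The response to IFNG also varied among the WT clones. The clone log2FC of Ifi202b ranged over 0.51, that of Mndal over 0.50 and that of Ifi203 over 0.47. These 3 of the 8 members were past the threshold of 0.05 on the adjusted p-value, as were 2.3% of genes, and nothing is read from this count. WT2, the clone with the highest baseline, was lowest in each. For Ifi202b this range of 0.51 stood beside a genotype difference in response of 0.66.

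The other PYHIN genes of the cluster were Ifi206, Ifi208, Ifi209, Ifi213 and Ifi214, 5 in the table. Of these, 3 could be tested for IFNG in each genotype and all 3 were higher in both, where 14.8% of genes were higher in WT and 15.8% in KO. Ifi213, the only one above 4 CPM, went from 37.6 ± 6.30 to 48.0 ± 7.16 CPM in WT (SD, n = 9), a log2FC of 0.36 ± 0.10 (edgeR FDR adjusted p-value = 0.00995), far below those of the p200 members. Ifi208 and Ifi209 had 3.70 ± 0.25 and 2.65 ± 0.26 from under 1 CPM. Ifi206 was at a mean of 1.09 CPM in treated WT and at no more than 1 count in an untreated library. After IFNG, Ifi209 (-0.85 ± 0.18, edgeR FDR adjusted p-value = 0.00271) and Ifi213 (-0.51 ± 0.10, 0.00116) were lower in KO, 2 of the 4 tested, where 13% of genes were lower. Ifi209 also passed in each KO clone alone, and Ifi213 did not in KO2 (-0.40 ± 0.12, 0.0589).

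Of 6 listed genes of the AIM2 inflammasome and its products, Casp1, Casp4, Gsdmd and Il18 were higher after IFNG in both WT and KO (14.8% and 15.8% of genes), and Pycard, the adaptor, was not called (0.04 ± 0.07 in WT). Casp4, the caspase of the noncanonical inflammasome, had 2.87 ± 0.06 in WT, and Casp1 0.88 ± 0.05. In treated KO cells Casp1 (0.32 ± 0.07, edgeR FDR adjusted p-value = 0.00227) and Pycard (0.37 ± 0.07, 0.00141) were higher than in WT, and Il18 was lower (-0.62 ± 0.08, 3.16e-05), where 10.9% of genes were higher and 13% lower. Pycard and Il18 also passed in each KO clone alone, and Casp1 did not in KO2 (0.19 ± 0.07, 0.132). Il1b, at no more than 1.48 CPM in any group mean, could not be tested in this comparison.

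Among 7 genes of cytosolic DNA sensing, 5 were higher after IFNG in WT and 4 in KO, where 14.8% and 15.8% of genes were. Zbp1 had 4.62 ± 0.89, Trex1, a DNA exonuclease, 2.79 ± 0.11, Tmem173, which encodes STING, 1.64 ± 0.10, and Mb21d1, which encodes cGAS, 0.49 ± 0.09 in WT. Tbk1 had 0.14 ± 0.05 in both, passed in WT and not in KO (edgeR FDR adjusted p-values = 0.0430 and 0.0647), and its genotype difference did not pass (0.987). In treated cells 1 of the 6 tested differed by genotype, Irf3, which was lower in KO (-0.25 ± 0.06, edgeR FDR adjusted p-value = 0.00680), as were 13% of genes. Irf3 did not pass in KO2 alone (-0.23 ± 0.08, 0.108).

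Of 9 genes of IFNG signaling, 7 were higher after IFNG in both genotypes and the receptor genes Ifngr1 and Ifngr2 were lower in both, where 14.8% of genes were higher and 13.9% lower in WT, and 15.8% higher and 14.8% lower in KO. Irf1 had 5.10 ± 0.07 in WT. After IFNG, Irf1 had -0.11 ± 0.06 in KO against WT and did not pass (edgeR FDR adjusted p-value = 0.224), while Stat2 was lower (-0.23 ± 0.07, 0.0308) and Ifngr2 higher (0.38 ± 0.07, 0.000997). That is 1 of the 9 in each direction, where 13% of genes were lower and 10.9% higher. Stat2 and Ifngr2 passed in KO1 alone (0.0122 and 0.000235) and not in KO2 alone (0.466 and 0.0682). The interaction estimate was 0.35 ± 0.07 for Irf9 (edgeR FDR adjusted p-value = 0.00681) and 0.30 ± 0.07 for Ifngr2 (0.0141), both above 0.

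The genes whose pattern was most like that of Ifi204 over the 10 means of clone and treatment, among 12345 genes of at least 1 CPM and members apart, were Ifi44l (Pearson r = 0.997), Parp3 (0.996) and Tmem140 (0.994). These points share clones and the treatment, and the values are a description. For Ifi44l the WT mean was 2.90 CPM untreated and 28.1 CPM treated, and the KO mean 1.23 and 19.8 CPM. For Aim2 they were Retreg1 (0.970), Ube2w (0.958) and Fosb (0.955), which like Aim2 were lower on average in KO, untreated and treated. Among the p200 members r lay between 0.971 and 0.999, and between Aim2 and each of them between -0.07 and 0.01. Of 48 genes outside the family annotated within 500 kb of the members, 34 had no count and 3 had a mean of at least 1 CPM, all of them unprocessed pseudogenes. Ifi203-ps went from 10.7 to 108 CPM in WT and Gm38050 from 2.24 to 18.1 CPM. Of the 150-base stretches in transcripts of Ifi203, 0.827% also occur in a transcript of Ifi203-ps or Mndal. Only uniquely aligned fragments were counted, so a fragment aligning equally well to both genes was left out. Mndal shares exon bases with Gm38050, where a fragment was counted for both, so their counts cannot be told apart in those bases.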

How the data were processed

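PolyA RNA of 30 libraries was sequenced. According to the study's methods the authors used BBDuk for trimming and HISAT2 (v2.1.0) for alignment to mm10, kept uniquely aligned fragments, merged technical replicates with SAMtools (v1.10) and counted strand-specific exon overlaps with featureCounts (v1.6.2). The deposited values are raw counts per gene. The file headers show that a fragment was counted for every gene it overlapped (option -O), and they name Gencode release 18 where the methods text names RefSeq. Their own comparisons used DESeq2 (v1.26.0). The other 13 deposited tables repeat the same counts (138 library columns, 0 values that differ) and 0 columns were left unused.

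Columns carry no replicate number, so libraries were assigned to groups only. Columns named wtc1 and wtc3 were taken as WT2 and WT3 because the submitters' tables for these clones hold them. Counts were tested with edgeR (v4.0.16, R v4.3.3): low-count genes were removed with filterByExpr, library sizes were TMM-scaled, and glmQLFit and glmQLFTest were run on all genes, with Benjamini-Hochberg adjustment over all genes tested and a threshold of 0.05. The SE was taken as |log2FC| / sqrt(F). Differences among WT clones are F tests, printed as the range of clone log2 values. Only the libraries of a comparison entered its fit, and all 30 entered the interaction. The fits were tested on simulated data with known changes. Alternatives were DESeq2 (v1.42.0), RLE size factors, other count filters, a fit over all 30 libraries, and leaving out each library or clone. The IFNG response was also fitted with clone as a term. Of the fits on counts summed per clone, those for untreated cells and for the interaction were added after seeing the data.

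The members and gene lists were chosen with earlier results of these data known. All members were described, partner genes were named where a group mean reached 1 CPM, and the 3 genes with the highest Pearson r over 10 group means were named for Ifi204 and Aim2. Results on some genes of the lists are not reported here.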

Additional observations from a re-analysis of the deposited data

Results flagged for a closer look

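The genotype difference in IFNG response was flagged for Ifi202b, Ifi211 and Ifi207, with a larger response in KO cells in each. The difference in log2FC was 0.66 for Ifi202b, 0.35 for Ifi211 and 0.26 for Ifi207. Without KO1 it was 0.42, 0.28 and 0.12. The response among the WT clones was flagged for Ifi202b, Mndal and Ifi203. The range of clone log2FC was 0.51 for Ifi202b, 0.50 for Mndal and 0.47 for Ifi203. Responses per clone were known when the members were chosen, so these values are descriptions and the flags are not support. In 32 groups of members' libraries checked for a library far from the others, 0 were found.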

How the results depend on the processing

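For KO against WT after IFNG, RLE size factors, DESeq2 and both other count filters left the call of every member other than Ifi204 unchanged. All 8 log2FC stayed below 0. Of 13637 genes, RLE size factors called 3256 and DESeq2 3567. Without a count filter 2726 of 27081 genes were called, and with at least 10 counts in every library 3162 of 12267. With counts summed per clone, Ifi204 left aside, 0 members were called (1 of 16197 genes). For the interaction, the estimate of Ifi202b was 0.64 with counts summed per clone and treatment and 0.42 without clone KO1. Without clone WT2 the estimates of Ifi207 and Ifi211 were 0.20 and 0.27. By construction the summed fits have fewer samples. In one fit over all 30 libraries, every member other than Ifi204 was called against WT after IFNG, for KO1 and for KO2. That fit held a term for each clone and treatment and called 6912 of 14870 genes for KO1 and 5358 of 14870 for KO2. Nothing about the members is read from these counts. For KO1 against KO2 after IFNG, Ifi202b gained a call with no count filter (edgeR adjusted p-value = 0.00249), where 2523 of 24874 genes were called. The median log2FC of KO vs WT untreated for the members, -0.67, was -0.83 without clone WT1, -0.56 without clone WT2 and -0.77 without clone KO2. Leaving out 1 library at a time gave 6 to 7 called for KO against WT after IFNG, 3 to 6 for KO1 and 2 to 5 for KO2 against WT, 1 to 3 for the interaction, 2 to 3 for KO1 against KO2 untreated and 0 to 2 after IFNG, 5 to 6 among WT clones untreated, 4 to 5 after IFNG, and 2 to 4 for their response. Estimates near 0 changed sign for KO1 against KO2 after IFNG when 1 library was left out, where Ifi203 ran from -0.0242 to 0.106 and Ifi211 from -0.0339 to 0.0532, and for the interaction of Mndal without clone KO1 (-0.0067) and without clone WT2 (-0.0036). Ifi203 lost its call after IFNG without KO1, KO2, WT2 or WT3 (adjusted p-values from 0.0972 to 0.147, edgeR). Except where shown by construction, the cause was not tested. No paired analysis was possible because the columns carry no replicate numbers. Depth limits Ifi205, with 6 to 27 counts per untreated library.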
